A study of Mus musculus with 161 samples.

Results

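Contacts across boundary 1 were taken as all ligation products between a restriction fragment whose midpoint lies within 100 kb below position 99151148 of chromosome X (mm9) and a fragment whose midpoint lies within 100 kb above position 99171148. These positions are the ends of a 20-kb bin, chrX:99151148-99171148, inside the gene Nhsl2. The primer design held 313 such forward-by-reverse primer pairs, and 254 of them were kept by the authors' iterative correction, out of 212485 kept pairs in the whole matrix. They joined 23 fragments upstream of the bin, at lower coordinates, to 22 fragments downstream of it, at distances of 22.2 to 216.7 kb. The square of pairs moved 20 kb upstream, across the bin chrX:99131148-99151148, held 338 kept pairs and was measured in the same way. These squares overlap. Pairs of a fragment with its midpoint at chrX:99051148-99131148 and one at chrX:99171148-99251148 belong to both, and they are most of the boundary 1 pairs. Both bins and all fragments of the boundary 1 pairs lie within Nhsl2 (ENSMUSG00000079481.4, chrX:99044724-99287394, plus strand), a protein-coding gene named for its similarity to Nhs. The bin of boundary 1 overlapped a single Nhsl2 exon (chrX:99157136-99157166) and was otherwise intronic. Within the span of the pairs the annotation also holds a U6 small nuclear RNA gene (ENSMUSG00000087712.1, chrX:99107969-99108063, minus strand) and Rgag4 (ENSMUSG00000049191.6, chrX:99261883-99266643, minus strand), a gene derived from a retrotransposon gag sequence.

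CTCF is a zinc-finger protein that binds an asymmetric DNA motif, so that its N terminus points to one side of the site and its C terminus to the other. Cohesin is a ring complex that enlarges chromatin loops until it meets bound CTCF, and loops are held most often between a pair of sites whose motifs face each other. At the boundary of a topologically associating domain (TAD) this lowers contacts between the chromatin on either side, which is called insulation. A site that anchors a loop across a bin adds contacts across it, whereas insulation takes contacts away, and both readouts are therefore contained in the pairs described here. Chromosome-conformation capture carbon copy (5C), used here with HindIII, counts ligation products between fragments that carry a forward primer and fragments that carry a reverse primer, around Xist and Tsix on chromosome X.

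All 91 libraries came from male mouse embryonic stem cells (E14Tg2a and subclones), in 29 lines, clones or conditions. Transgene lines (69 libraries) were stable clones that shared one parental background, in which endogenous CTCF was fused to an auxin-inducible degron (AID) and Tir1, the factor that lets auxin degrade it, was inserted at random. A CTCF cDNA fused to FLAG and mRuby2 stood under a doxycycline (dox) promoter at Tigre, and cells had 4 days of auxin and dox. The reference was full-length CTCF (14 libraries), with a full-length line of low expression (2) and the full-length line given auxin without dox (2), in which endogenous CTCF was degraded and nothing was induced. Deletions named by residues were Del_1-265 (clone 1, 6; clone 2, 4), Del_1-88 (2), 89-178 (2), 179-265 (2), 264-288 (2), Del_1-31 (clone 1, 2; clone 2, 2), Del_13-33 (clone 1, 6; clone 2, 4), Del_576-614 (3), Del_577-736 (1) and Del_615-736 (1). Other lines carried H288R (2), Y226A-F228A (2), Y226A-F228A with a deletion of 13-33 (2), Sumoylation_deficient_1 (K74R_Del_576-614, 2), Sumoylation_deficient_2 (K74R_Del_615-736, 2), Mut_Parylation (2) and an exchange of the N and C termini (N/C-term swap, 2). Y226A-F228A replaces a tyrosine and a phenylalanine through which the CTCF N terminus contacts the cohesin subunits SA2 and RAD21. Untreated cells (22 libraries) were WT parental (3), CTCF-AID with Tir1 (4), and clones with residues 13-33 deleted from endogenous CTCF, either untagged (clone 1, 3; clone 2, 4) or fused to AID with Tir1 (clone 1, 4; clone 2, 4). Most lines are a single clone, and the amount of transgene protein was not measured in these data. The paper compared expression between lines by flow cytometry for mRuby2, and reports slightly higher expression of the 1-265 deletion by Western blot. Those values were not used here, so differences between lines cannot be told apart here from differences in expression. Nothing in the labels says that replicates of a line were separate cultures, so p-values measure the spread between these libraries.

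Between 9552 and 75927 counts fell on these pairs in a library, with a median of 31020, or 0.179% to 0.342% of all counts in the 82 libraries with a complete count matrix (3631870 to 23419010 counts). A member pair of median level held 103 counts per full-length library, and the CV of a pair over the full-length libraries had a median of 35.1%. In a library, 0% to 18.9% of the members were at 0, with a median of 1.97%. Libraries carry running numbers in their labels, and the 10 with the highest numbers stood apart from the rest. They hold full-length replicates 12 and 13, Del_1-265 clone 1 replicates 5 and 6, Del_13-33 clone 1 replicates 5 and 6 and every library of Y226A-F228A and of del_13-33-Y226A-F228A. Their totals were 4509541 to 23096139 counts. In full-length, the 2 libraries numbered last had the highest values across both bins, and in Del_13-33 clone 1 likewise, so results that rest on these 10 libraries are given also without or within them, or with them as a block.

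FLAG–CTCF peaks from full-length cells (2 days of auxin and dox) were 200 bases wide and mark where the transgene protein was bound. Between the outer ends of both squares there were 8 peaks, all in introns of Nhsl2 and numbered P1 to P8 from low to high coordinates. Among the fragments of the boundary 1 pairs, P2 and P3 lie on the upstream side (13.3 and 1.4 kb before the start of the bin), and P4, P5, P7 and P8 on the downstream side (19.3, 25.9, 103.8 and 110.6 kb after it). P4 itself sits in the last kilobase of the bin, in a fragment whose midpoint lies beyond it. The fragment of P6 was left out by the authors' correction, and P1 lies in a fragment outside the windows of boundary 1. A 20-base CTCF motif was built from the peaks of chromosome X. The start was the known core of the motif (CCA, 2 free bases, AG, 2 free bases and GGC). It was found at or above a cutoff of 9.69 bits in 968 of 1128 peaks (85.8%, both strands searched). The cutoff was set from the scores of 1116 windows of the same length 2 kb away. The 56 windows that reached it (5.02%) follow from that choice and are not a measured rate. The peaks are those that built the motif, so their share is no independent test of it. The exact core, which needs no cutoff, occurred in 488 of these peaks (43.3%) and 15 of these windows (1.34%). The best site of each peak, written 5′ to 3′ on its own strand in capitals, is shown for the peaks in measured fragments, since the strand gives the side that the motif faces.
P2, chrX:99137864-99137883, minus strand: CTGTCCCCTAGGTGGCAGCA
P3, chrX:99149745-99149764, plus strand: CCGGGCGGCAGAGGGCGCTG
P4, chrX:99170406-99170425, plus strand: TACACCAGAAGAGGGCACTG
P5, chrX:99176979-99176998, plus strand: GGTAACACCAGGAGGCGCAG
P7, chrX:99254908-99254927, plus strand: AAAGCCAGAAGAGGGCACCA
P8, chrX:99261696-99261715, minus strand: TGGGACACTAGATGGTGCTA
P3, P4, P5 and P7 read along the plus strand, and P2 and P8 along the minus strand. P3 and P8 therefore face each other across the bin, over a distance of about 112 kb, whereas P3 and P7 point the same way. P3 holds no exact core, and its copy of the core with 1 mismatch reads along the minus strand, so the direction given for P3 rests on the matrix alone. Sites scored 20.8 bits in P4 and 22.5 bits in P7, 14.4 to 15.5 bits in P2, P3 and P8, and 9.79 bits in P5, close to the cutoff. P7 lies in the same fragment as P8 and holds an exact core, which P8 does not. The 200 bases of P3 and of P8 on the plus strand are given whole, with the site in capitals, because the pair of fragments that holds them had the smallest p of all members in each of the 3 comparisons of single pairs. That pair holds P7 as well.
P3, chrX:99149660-99149859: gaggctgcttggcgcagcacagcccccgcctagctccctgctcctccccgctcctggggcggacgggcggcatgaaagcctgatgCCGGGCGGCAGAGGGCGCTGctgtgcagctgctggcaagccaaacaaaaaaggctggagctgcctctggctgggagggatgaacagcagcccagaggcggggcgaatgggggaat
P8, chrX:99261600-99261799: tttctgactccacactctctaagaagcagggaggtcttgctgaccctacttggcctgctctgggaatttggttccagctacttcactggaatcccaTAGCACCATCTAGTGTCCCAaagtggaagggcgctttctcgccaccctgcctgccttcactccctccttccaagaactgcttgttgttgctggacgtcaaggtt

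Contact across a bin was expressed as log2 of the mean corrected value of its pairs over the mean of the same square over all 20-kb bins of that library that could be measured, so that 0 is the average bin and lower values mean more insulation. In full-length cells boundary 1 stood at 0.02 ± 0.07 (SD, n = 14), and the bin upstream at −0.18 ± 0.12. The lowest bin within 60 kb was 40 kb upstream of boundary 1, at −0.25 ± 0.10, and every line and clone had its lowest bin at that place. By this measure the named bin is thus the downstream shoulder of a dip in contacts and not its floor. Contacts climbed on both sides of the dip, to 0.72 ± 0.04 across the bin 40 kb downstream of boundary 1 and to 0.72 ± 0.06 across the bin 120 kb upstream. Of all measured squares, 114 (58.2%) were lower than boundary 1 in full-length cells and 86 (43.9%) were lower than the bin upstream, against 6 (3.06%) for boundary 2 of the same study, 8 (4.08%) for boundary 5 and 55 (28.1%) for boundary 3. In WT parental cells the dip was deeper, with −0.17 ± 0.04 at boundary 1, −0.32 ± 0.05 across the bin upstream and −0.41 ± 0.10 at the lowest bin (n = 3). Without dox the dip was shallow, with 0.21 ± 0.01 at boundary 1 and 0.03 ± 0.01 at the lowest bin (n = 2), while the bins 40 kb downstream and 120 kb upstream had come down to 0.52 ± 0.02 and 0.50 ± 0.02. The profile was therefore flatter on both its low and its high side, which the plot of bins around boundary 1 shows for Del_1-265 and Y226A-F228A too.

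**Figure D1:**
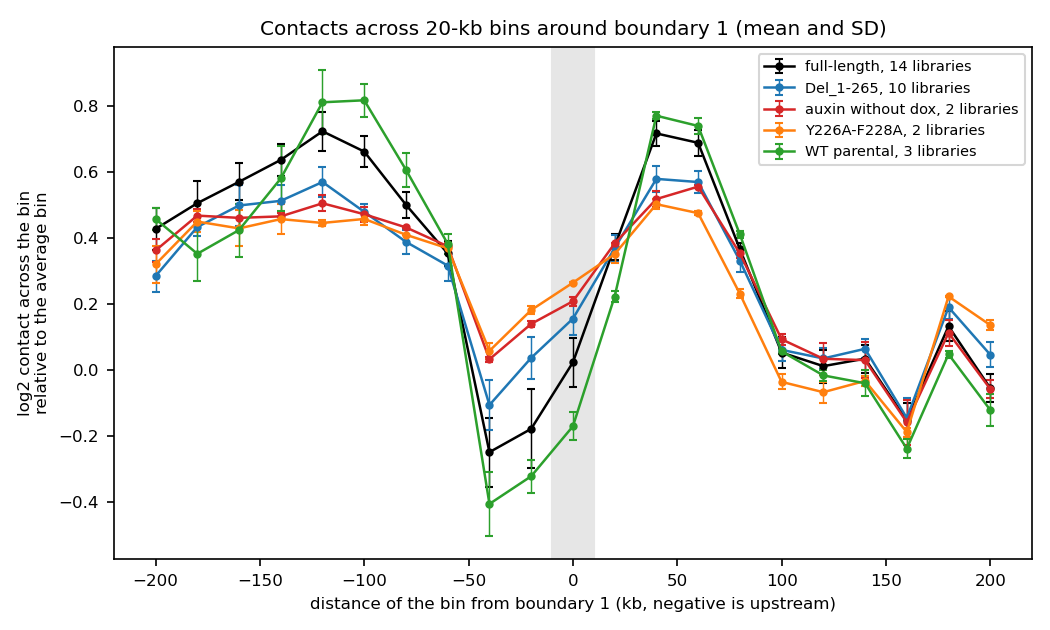
Contact across 20-kb bins (log2 relative to the average bin of the library, vertical axis) against the distance of the bin from boundary 1 in kb (horizontal axis), as the mean with the SD over libraries as bars for 5 groups; the grey band is boundary 1. All 5 lines dip at −40 kb, where full-length stands at −0.25 and auxin without dox at 0.03, and rise to both sides, with full-length at 0.72 and auxin without dox at 0.52 at +40 kb.

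Both clones with the whole N terminus deleted had a higher mean contact across boundary 1 than full-length, and clone 1 alone was called. The 14 full-length libraries ranged from −0.08 to 0.17 with a median of 0.01. The 6 libraries of Del_1-265 clone 1 stood at 0.11, 0.13, 0.13, 0.17, 0.18 and 0.27, all in the upper part of the full-length range or beyond it, with 3 of 6 above every full-length library. The mean was higher by 0.14 ± 0.03 (SE) or 1.10-fold (adjusted p = 0.0196, exact permutation test with Benjamini-Hochberg adjustment over the 20 lines and conditions with 2 or more libraries). Del_1-265 clone 2 stood at 0.09, 0.15, 0.15 and 0.17, a difference of 0.12 ± 0.04 that did not pass after adjustment (exact permutation p = 0.0098, adjusted p = 0.0667). It passed with the last 10 libraries left out (difference of 0.14, adjusted p = 0.00989, exact permutation test), or without full-length replicate 12 (0.13, adjusted p = 0.0336) or 13 (0.13, adjusted p = 0.042) alone. The call for clone 1 was lost without its own replicate 4 (0.14, adjusted p = 0.055), 5 (0.14, adjusted p = 0.055) or 6 (0.12, adjusted p = 0.0654) in the same exact permutation test. The titles of replicates 5 and 6 name no clone. The call for clone 1 also ended with raw counts (difference of 0.12), with 20-kb bins (0.06), without scaling by other squares (0.10) and with the last 10 libraries as a block (0.12, adjusted p = 0.0529), while the difference stayed positive in each.

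The largest differences from full-length belonged to lines with 2 libraries, where the smallest p an exact permutation test against 14 libraries can give is 0.0167, and 0.0667 was the smallest adjusted p that these lines reached. Y226A-F228A stood at 0.26 and 0.27, above every full-length library, a difference of 0.24 ± 0.05 or 1.18-fold. The double mutant del_13-33-Y226A-F228A stood at 0.20 and 0.24, a difference of 0.19 ± 0.05 or 1.14-fold. Auxin without dox gave 0.20 and 0.22, a difference of 0.19 ± 0.05 or 1.14-fold. These were the lines and conditions in which no library overlapped with full-length, and each had an adjusted p of 0.0667 (exact permutation test). With windows of 50 or 200 kb in place of 100 kb, Y226A-F228A (0.33 and 0.19) and auxin without dox (0.21 and 0.19) passed (adjusted p = 0.0476 each). Both Y226A-F228A lines were measured among the last 10 libraries alone, where full-length stood at 0.17 and 0.15. Within those libraries Y226A-F228A exceeded full-length by 0.10, del_13-33-Y226A-F228A by 0.06 and Del_1-265 by 0.06, with 2 of 2 libraries above both full-length libraries in each case. Del_13-33 within them stood only 0.0057 above full-length. The part of the library numbers in the larger pooled differences was not tested. Auxin without dox shared its run of library numbers with 5 full-length libraries, which it exceeded by 0.22, and with Del_1-265, N/C-term swap and Mut_Parylation, which exceeded them by 0.13, 0.16 and 0.13.

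**Figure D2:**
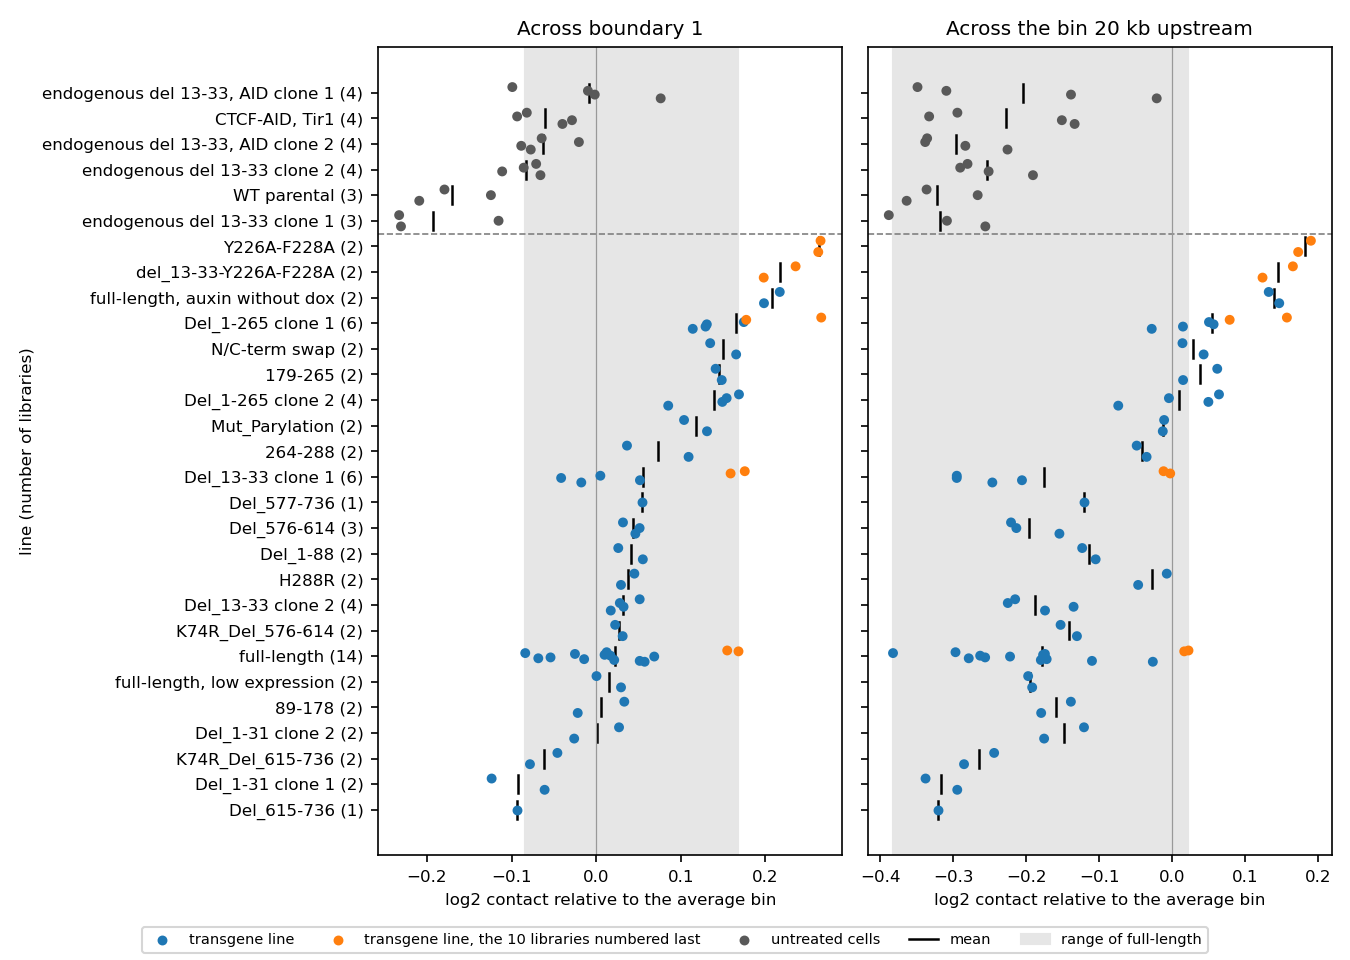
Contact across boundary 1 (left) and across the bin 20 kb upstream (right), log2 relative to the average bin, with 1 point per library, a black tick at the mean of each line or condition and the number of libraries in parentheses; the grey band spans the 14 full-length libraries, and orange marks the 10 libraries numbered last. Y226A-F228A (0.26 and 0.27) and auxin without dox (0.20 and 0.22) lie beyond the band at boundary 1, and the untreated cells stand above the dashed line.

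Partial deletions of the N terminus lay on both sides of the full-length mean. Line 179-265 stood at 0.15 and 0.14, N/C-term swap at 0.17 and 0.13 and Mut_Parylation at 0.13 and 0.10, differences of 0.12 ± 0.05, 0.13 ± 0.05 and 0.09 ± 0.05 with an adjusted p of 0.233 each (exact permutation test). Deletion of 264-288 gave 0.04 and 0.11, and H288R gave 0.03 and 0.05. Del_1-88 gave 0.03 and 0.06, and 89-178 gave −0.02 and 0.03. All 8 of these libraries lay inside the full-length range, as did those of 179-265, N/C-term swap and Mut_Parylation. The remaining lines with 2 or more libraries had differences of −0.11 to 0.03, and the lowest was Del_1-31 clone 1 at −0.06 and −0.12 (difference of −0.11 ± 0.06, adjusted p = 0.167, exact permutation test). Clone 2 of the same deletion stood at −0.03 and 0.03, within the full-length range. Low expression of full-length CTCF gave 0.00 and 0.03, a difference of −0.0077 ± 0.05 (exact permutation p = 0.967). The single libraries of Del_577-736 and Del_615-736 stood at 0.05 and −0.09, with no test.

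The bin 20 kb upstream, which holds P2 and P3, showed a similar order of lines with larger differences. Since its square shares most boundary 1 pairs, this is not a separate measurement. The fragments of P2 and P3 have their midpoints in that bin, so their pairs are left out of its square. Full-length ranged from −0.38 to 0.02 with a median of −0.18. Del_1-265 clone 1 had a mean of 0.05, higher by 0.23 ± 0.05 or 1.18-fold (adjusted p = 0.0114, exact permutation test), with 4 of 6 libraries above every full-length library. This call was lost without scaling by other squares, with symmetric matrices alone and for contacts within over across. It was also lost with a replicate block and with the last 10 libraries as a block. Clone 2 was at 0.0086, a difference of 0.19 ± 0.06 (adjusted p = 0.0667). Auxin without dox stood at 0.15 and 0.13, Y226A-F228A at 0.17 and 0.19 and del_13-33-Y226A-F228A at 0.12 and 0.17, all above every full-length library, with differences of 0.32, 0.36 and 0.32 (adjusted p = 0.0667 each, exact permutation test). Within the last 10 libraries, in which full-length stood at 0.02 and 0.02, these differences were 0.16 for Y226A-F228A, 0.13 for the double mutant and 0.10 for Del_1-265. Line 179-265 differed by 0.22 ± 0.09 and N/C-term swap by 0.21 ± 0.09, with an adjusted p of 0.143 each (exact permutation test).

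The Del_13-33 clones had fewer contacts across both bins than the Del_1-265 clones. The 10 libraries of both Del_13-33 clones averaged 0.05 across boundary 1 and those of both Del_1-265 clones 0.16, a difference of −0.11 ± 0.03 (adjusted p = 0.00816, permutation test with 100000 resamples, adjusted over 6 comparisons between lines). Across the bin upstream the difference was −0.22 ± 0.04 (adjusted p = 0.00156), and it was −0.12 and −0.24 at both bins with the last 10 libraries left out (adjusted p = 0.000777 at both, permutation test). Against full-length itself, Del_13-33 clone 1 differed by 0.03 ± 0.04 and clone 2 by 0.0097 ± 0.04. Del_1-265 did not overlap with the low-expression full-length line across either bin, and was higher by 0.14 ± 0.04 across boundary 1 and by 0.23 ± 0.05 upstream, but with 2 low-expression libraries the exact permutation p of 0.0303 is the smallest possible (adjusted p = 0.0606). Against auxin without dox, Del_1-265 stood at a difference of −0.05 ± 0.04 across boundary 1 (exact permutation p = 0.212) and −0.10 ± 0.05 upstream (p = 0.0909). Y226A-F228A exceeded Del_1-265 by 0.11 ± 0.04 at boundary 1 and 0.14 ± 0.05 upstream (adjusted p = 0.109 and 0.0606, exact permutation test), a comparison between libraries of different runs for 8 of the 10 Del_1-265 libraries.

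In untreated cells, deletion of 13-33 from endogenous CTCF gave no difference that passed over both clones together. The WT parental libraries stood at −0.21, −0.12 and −0.18 across boundary 1, and the 7 libraries of the untagged deletion clones averaged −0.13, a difference of 0.04 ± 0.05 (exact permutation p = 0.433). The clones lay on either side of WT parental, with clone 1 at −0.19 ± 0.07 and clone 2 at −0.08 ± 0.02, where all 4 libraries were above every WT library. The CTCF-AID libraries averaged −0.06 and the 8 libraries of the AID deletion clones −0.04, a difference of 0.03 ± 0.03 (exact permutation p = 0.465). Upstream the same differences were 0.04 ± 0.04 and −0.02 ± 0.07 (exact permutation p = 0.317 and 0.715), and adjusted p-values over these 4 comparisons were 0.62 to 0.715. The change in untagged cells exceeded that in AID cells by 0.0152 at boundary 1 (p = 0.779) and by 0.0635 upstream (p = 0.421, permutation test), neither of which passed. Untreated CTCF-AID cells stood above WT parental cells at boundary 1 without overlap, by 0.11 ± 0.03 (exact permutation p = 0.0571, the smallest possible, adjusted p = 0.0857), and below full-length rescue by 0.08 ± 0.04 (adjusted p = 0.0606).

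With 100-kb windows, the change across boundary 1 was smaller than that at 3 of the 4 other bins compared in the same libraries. As the within-library difference, boundary 1 gained less than boundary 3, boundary 5 and the bin upstream in Del_1-265, with no such difference from boundary 2. Del_1-265 gained 0.13 at boundary 1, 0.11 at boundary 2, 0.22 across the bin upstream, 0.27 at boundary 3 and 0.33 at boundary 5. The gain at boundary 1 was below those at boundaries 3 and 5 by 0.14 ± 0.03 and 0.19 ± 0.02 (adjusted p = 0.00036 and 0.00024, permutation test over 12 comparisons), and below that across the bin upstream by 0.08 ± 0.02 (adjusted p = 0.00392). The squares of boundary 1 and of the bin upstream share most boundary 1 pairs and are not separate measurements. These differences depended on the settings. With 200-kb windows the difference from boundary 3 turned to 0.06 in Del_1-265, and of 9 differences called over Del_1-265, auxin without dox and Y226A-F228A together, the number called fell to 1 or 2 with 50- or 200-kb windows, the median, the geometric mean, no peak fragments or a replicate block. Among all measured squares of Del_1-265, boundary 1 had a larger signed difference from full-length than 172 (87.8%) and the bin upstream than 187 (95.4%), and without dox these shares were 90.3% and 95.9%.

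Single pairs across boundary 1 moved in both directions. Of the 254 members, 247 passed a filter on low values (mean corrected value of at least 5 in a matrix scaled to sum to 1000000) and entered a limma fit of log2(corrected value + 1) over 28171 pairs of all distances up to 500 kb. In Del_1-265 against full-length, 8 members were called at an adjusted p under 0.05, 2 higher and 6 lower, whereas over all pairs tested 2.59% were called, 0.689% higher and 1.91% lower. In Y226A-F228A 2 members were called, 0 higher and 2 lower, against a background of 1.56%, 0.0923% higher and 1.47% lower. Without dox 1 member was called, 0 higher and 1 lower, against 0.177%, 0.0248% higher and 0.153% lower. The share of members called was 3.24%, 0.81% and 0.405%, near the background. With 1 library left out, 3 (without full-length replicate 5) to 9 members were called in Del_1-265. Called pairs included, 39 (15.8%), 34 (13.8%) and 28 (11.3%) members had an unadjusted limma p under 0.05, against 15.4%, 12% and 7.02% of all pairs tested. The gain of the square as a whole was spread over many pairs that did not pass singly. Of the members fitted, 167 had a positive log2 difference in Del_1-265 (median 0.11), 165 in Y226A-F228A (median 0.26) and 181 without dox (median 0.32), where the medians over all pairs tested were −0.05, −0.04 and 0.04. The median for Y226A-F228A was 0.13 when the last 10 libraries were taken as a block of their own. The square of the bin upstream leaves out the fragments of P2 and P3, whose midpoints lie in that bin. It also leaves out the fragment of P7 and P8, which lies beyond its window. Across the bin upstream, 240, 245 and 270 of 330 fitted pairs had a positive difference, and 2, 1 and 0 were called higher, with 0 called lower in all 3 (limma, with 38, 41 and 32 pairs, or 11.5%, 12.4% and 9.7%, at an unadjusted p under 0.05). With the last 10 libraries as a block, the median over these pairs in Y226A-F228A was 0.17 in place of 0.28.

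The loss with the smallest p belonged to the pair of fragments that holds P3 on one side (chrX:99146819-99151801) and P7 and P8 on the other (chrX:99253549-99261923), with midpoints 108.4 kb apart. In full-length it was the second highest of the 254 members, at a corrected value of 62.7 ± 3.75 on the same scale (SD, n = 14; range 55.6 to 69.5), with a CV of 5.98%. In Del_1-265 it stood at 35.9 ± 7.32 (range 24.0 to 46.5, n = 10), below every full-length library in all 10, a log2 difference of −0.80 ± 0.08 (SE; adjusted p = 1.46e-09, limma). Y226A-F228A stood at 31.1 and 32.4, a log2 difference of −0.96 ± 0.15 (adjusted p = 0.000146, limma). Auxin without dox gave 36.9 and 36.4, a log2 difference of −0.76 ± 0.15 (adjusted p = 0.00915, limma). The loss was thus of similar size in the mutants and in cells whose transgene was not induced. Within the last 10 libraries, full-length stood at 61.0 and 59.1, so here the values of Y226A-F228A lay as far below as in the pooled comparison (log2 difference of −0.93 with these libraries as a block, adjusted p = 0.000536, limma). The call without dox was lost when either of its 2 libraries was left out and in count models, which held 1 of them (log2 difference of −0.69, adjusted p = 1, edgeR; −0.67, adjusted p = 0.881, DESeq2), whereas Del_1-265 (−0.89, adjusted p = 1.41e-05, edgeR) and Y226A-F228A (−1.06, adjusted p = 0.0262, edgeR) stayed called. Since both P7 and P8 lie in one fragment, the data do not tell which of them takes part.

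**Figure D3:**
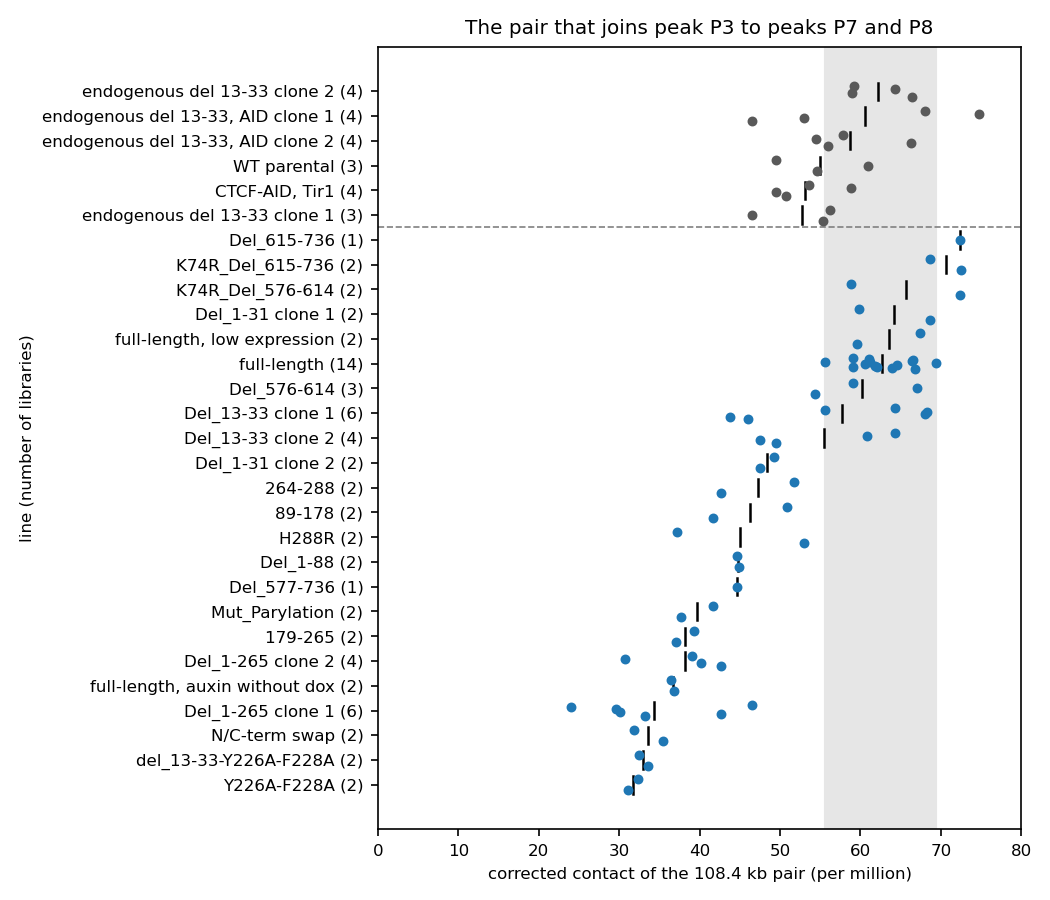
Corrected contact (matrix scaled to sum to 1000000) between the fragment of P3 and the fragment of P7 and P8 (horizontal axis), with 1 point per library, a black tick at the mean and the number of libraries in parentheses; the grey band spans the 14 full-length libraries and untreated cells stand above the dashed line. Lines from Y226A-F228A (mean 31.7) to Del_1-31 clone 2 (mean 48.4) have every library below the band.

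Across the transgene lines the level of this pair ranged from 31.7 to 72.3. In 14 of the 22 other lines and conditions every library lay below every full-length library, with means of 31.7 to 48.4. The lowest were Y226A-F228A (31.7), del_13-33-Y226A-F228A (33.0) and N/C-term swap (33.6), followed by Del_1-265 clone 1 (34.3) and clone 2 (38.1), 179-265 (38.2) and Mut_Parylation (39.6). Del_577-736, Del_1-88, H288R, 89-178, 264-288 and Del_1-31 clone 2 stood between 44.6 and 48.4. The 8 others, with means of 55.5 to 72.3, had at least 1 library that was not below the full-length range of 55.6 to 69.5, and they were both Del_13-33 clones (57.7 and 55.5), low-expression full-length (63.5), Del_1-31 clone 1 (64.2), Del_576-614 (60.2), both Sumoylation_deficient lines (65.6 and 70.6) and Del_615-736 (72.3). The 2 clones of Del_1-31 thus fell on different sides. The split was not clean, since 3 of 6 libraries of Del_13-33 clone 1 (lowest 43.8) and 2 of 4 of clone 2 (lowest 47.5) also lay below every full-length library, and Del_615-736 lay above every one. Untreated cells stood at 55.0 ± 5.72 in WT parental, 53.1 in CTCF-AID and 52.7 to 62.2 in the clones with an endogenous deletion. Below every full-length library lay 2 of 3 libraries of WT parental, 3 of 4 of CTCF-AID and, by clone, 0 of 4 to 2 of 3 with an endogenous deletion.

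The members called lower shared the fragments of P2 or P3. All 6 members called lower in Del_1-265 and both called lower in Y226A-F228A had P2 or P3 in their upstream fragment, and neither of the members called higher in Del_1-265 did. The fragments of P2 and P3 held 10 and 12 of the 247 fitted members. Their members averaged 31.8 and 37.8 in full-length, against 6.16 to 26.0 for the other upstream fragments. Whether this higher level made calls easier there was not tested, and the share of members called was near the background. P3 with the fragment 118.6 kb away (chrX:99267288-99268456) was at 34.9 ± 5.50 in full-length and 23.9 ± 5.79 in Del_1-265 (log2 difference of −0.55 ± 0.11, adjusted p = 0.00129, limma). The fragment chrX:99261923-99267288 separates it from that of P8. P2 with the fragment at 124.8 kb (chrX:99261923-99267288) went from 37.8 ± 6.48 to 28.1 ± 11.4 (−0.56 ± 0.15, adjusted p = 0.0297, limma), a fall carried by clone 2 (19.6 ± 0.24) more than by clone 1 (33.8 ± 11.7). P2 with the fragment at 88.4 kb (chrX:99226718-99229841) was at 34.2 ± 5.06 in full-length and at 14.6 and 19.6 in Y226A-F228A (−0.96 ± 0.24, adjusted p = 0.0232, limma), while Del_1-265 stood at 36.0 ± 8.48, and within the last 10 libraries full-length stood at 37.8 and 40.2. The call at P2 with the fragment at 104.7 kb in Del_1-265 (−0.64 ± 0.18, adjusted p = 0.0395, limma) was lost with the last 10 libraries left out (adjusted p = 0.0516). The member called higher by the largest step, with no peak in either fragment (chrX:99090482-99096539 with chrX:99246323-99248619), went from 9.56 ± 2.45 to 15.7 ± 5.56 (0.69 ± 0.18, adjusted p = 0.0223, limma), and it too was lost without those libraries (adjusted p = 0.114). Of these 5 pairs, P3 with the fragment at 118.6 kb alone was also called in edgeR (adjusted p = 0.0129).

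The other measured pairs between peak fragments, P3 with P4 and P2 with P5, did not pass the test. P2 with P4, P2 with P7 and P8, and P3 with P5 could not be measured, since both fragments carry the same type of primer. Whether the direction of the motifs has a part in the change of a pair was not tested. The highest member of all joined the fragments of P3 and P4 over 22.2 kb, at 74.2 ± 13.0 in full-length, 83.7 ± 11.1 in Del_1-265 and 70.1 and 75.7 without dox, with log2 differences of 0.20 ± 0.09 and −0.00075 ± 0.15 (adjusted p = 0.215 and 1, limma). P2 with P5 over 35.8 kb stood at 42.9 ± 6.01 in full-length and 39.8 ± 8.70 in Del_1-265 (−0.13 ± 0.12, adjusted p = 0.644, limma). The third highest member, P2 with the fragment 40.5 kb away beyond P5 (chrX:99178375-99182351), had a median of 44.7 in full-length and 47.8 in Del_1-265 (0.12 ± 0.11, adjusted p = 0.682, limma). Members with a peak in both fragments were 5.21 times as high as those with no peak in full-length cells, at 59.9 ± 4.06 (3 members) against 11.5 ± 1.49 (200 members).

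The gain across boundary 1 was found mainly in the pairs without a peak when all libraries were pooled. These 200 members averaged 11.5 ± 1.49 in full-length, 12.6 ± 0.66 in Del_1-265 (1.09-fold), 13.5 ± 0.07 in Y226A-F228A (1.18-fold) and 14.1 ± 0.53 without dox (1.22-fold), and 71.5%, 69.9% and 79.3% of the 193 fitted had a positive difference. The 51 members with a peak in 1 fragment stood at 22.1 ± 1.27 in full-length and at 22.4, 22.6 and 22.4 in the same 3 groups. Within the last 10 libraries, where full-length stood at 12.5 over the members without a peak, Y226A-F228A was 1.08-fold and Del_1-265 1.02-fold higher, and over members with a peak in 1 fragment both were 1.04-fold higher. The 3 members with a peak in both fragments stood at 59.9 ± 4.06 in full-length and at 53.1 ± 5.81, 52.7 ± 1.31 and 51.4 ± 1.97. By distance, the members changed in Del_1-265 by 1.08-fold below 50 kb (8 members), 1.12-fold at 50 to 100 kb (70 members, 58 of them positive), 1.03-fold at 100 to 150 kb (112 members) and 1.00-fold at 150 to 220 kb (64 members). Without dox the changes were 1.07-, 1.15-, 1.15- and 1.14-fold, and no dependence on distance was tested. By fragment, the 3 most downstream fragments, which hold P7 and P8 or lie beyond them, had negative medians in Del_1-265 (−0.17, −0.09 and −0.19), whereas 18 of the other 19 downstream fragments had a positive median in Del_1-265.

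**Figure D4:**
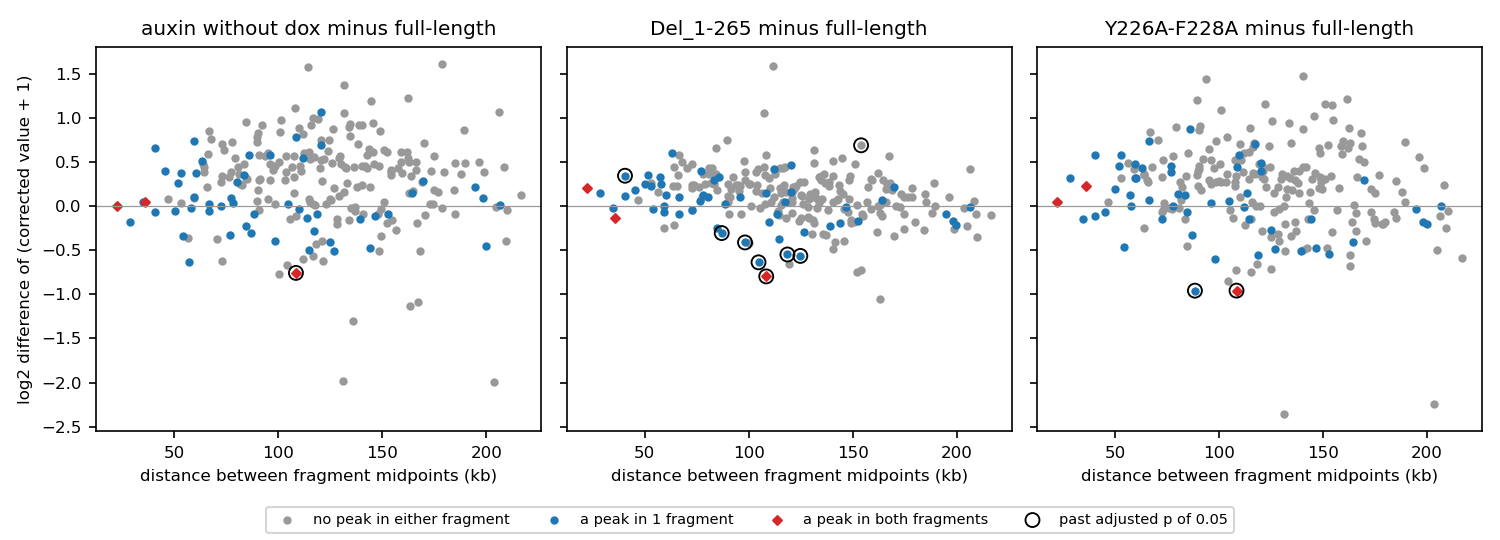
Log2 difference of corrected value + 1 from full-length (vertical axis) for each fitted member against the distance between fragment midpoints in kb (horizontal axis), without dox (left), in Del_1-265 (middle) and in Y226A-F228A (right); colours give the peaks in the fragments and rings mark an adjusted p under 0.05 (limma). The pair at 108.4 kb with peaks in both fragments is ringed in all 3 panels, at −0.76, −0.80 and −0.96, while most pairs without a peak lie above 0.

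Among the transgene lines, a lower level of the pair of P3 with P7 and P8 went with more contacts between the fragments without a peak. Untreated cells did not follow this order and are not in the correlations. Their line means were 52.7 to 62.2 for the pair and −0.53 to −0.30 for members without a peak fragment. Both were below full-length, at 62.7 and −0.27. Over the 23 transgene lines and conditions the mean of this pair and the mean log2 contact across boundary 1 over members without a peak fragment had a Spearman correlation of −0.91 (Pearson −0.91 with log2 of the pair). It was −0.88 (Pearson −0.89) without the 2 lines farthest from the median of the pair, −0.88 (Pearson −0.89) without the 2 lines measured in the last 10 libraries alone, and −0.92 (Pearson −0.91) over the 14 lines below full-length. Over the 9 remaining lines, full-length included, it was −0.45 (Pearson −0.65). The points are line means of 1 to 14 libraries that share a library scaling, the correction and the parental line, and the correlations are given as a description.

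**Figure D5:**
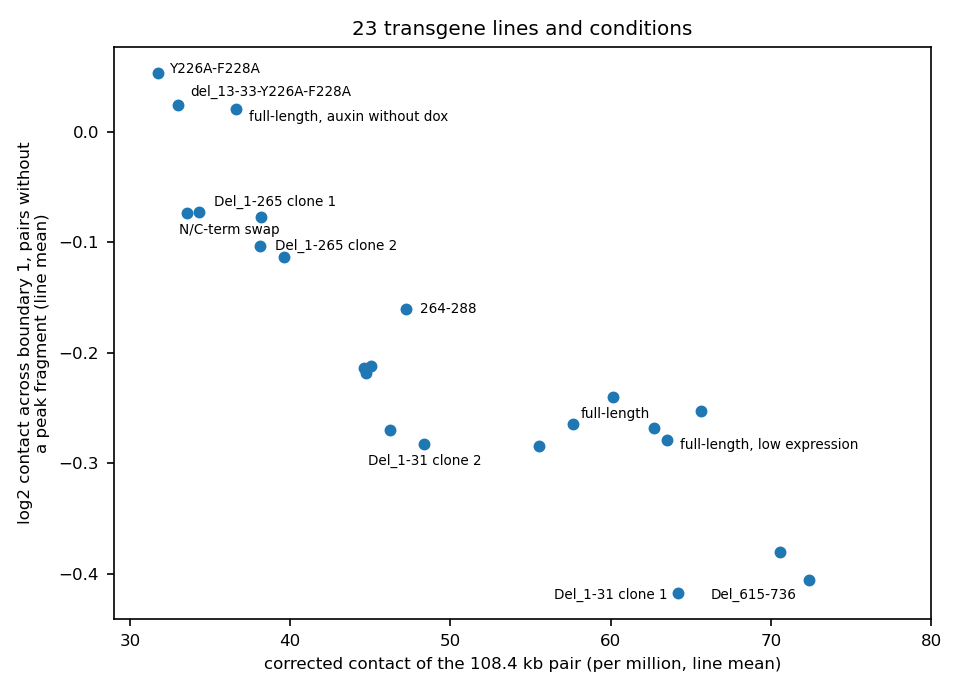
Mean log2 contact across boundary 1 over members without a peak fragment (vertical axis) against the mean corrected contact of the pair of P3 with P7 and P8 (horizontal axis), with 1 point for each of 23 transgene lines and conditions and some of them named. Lines with 31.7 to 39.6 on the horizontal axis lie at the top, and those from 55.5 upward at the bottom.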

How the data were processed

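5C libraries of male mouse embryonic stem cells (91 libraries) were used, with the FLAG–CTCF peak list of full-length cells, and the Hi-C and other ChIP-seq samples were not used here. The authors deposited raw counts of reads per forward-by-reverse primer pair, and the iteratively corrected matrices, whose signal was scaled by the authors at the fragment level (mm9). The submitters' processing notes name Bowtie2 and SAMtools, with no version. Corrected matrices were symmetric in 78 libraries and not in 13, and 9 count matrices stopped before the last forward primer, so that counts were used as totals or in count models only for 82.

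Each forward-by-reverse matrix was rescaled to sum to 1000000. The value of a bin is log2 of its mean over pairs divided by the mean over all 20-kb bins with at least 20 pairs and 50% of the designed pairs measured. Groups were compared over libraries by two-sided exact permutation tests, or 100000 resamples where both groups held 10 or more, with Benjamini-Hochberg adjustment within each family. Single pairs up to 500 kb apart, measured in every library and with a mean of at least 5, were fitted in limma 3.58.1 (R 4.3.3) on log2(value + pseudocount 1) over all transgene libraries with a mean-variance trend. On simulated data for Del_1-265 against full-length (28171 pairs), limma called 51 of 100 pairs changed 2-fold, 17 of 100 changed 1.5-fold and 1 of 27971 unchanged pairs. These were independent counts for the libraries with a complete count matrix, with changes placed in pairs of a mean count of at least 10. They held no differences between runs of library numbers and no iterative correction, so the rates may not hold for the real matrices. edgeR 4.0.16 (quasi-likelihood, TMM) and DESeq2 1.42.0 on the counts were alternatives. Other steps used Python 3.11.15, numpy 2.4.6, scipy 1.17.1, pandas 2.3.3 and matplotlib 3.10.9.

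The members, lists and tests were chosen with earlier results of these data known. Named pairs were the 5 highest in full-length, up to 5 called pairs of each contrast and pairs with a peak in both fragments. Groups followed the labels, with exceptions. The titles of Del_1-265 clone 1 replicates 5 and 6 and of Del_1-265 clone 2 replicate 4 name no clone, so placing them in a clone goes beyond their titles. One library titled Del_615-736 names the Del_576-614 cell line as its source and is Del_576-614 replicate 1 here. Runs of library numbers were split where numbers differ by more than 20, which gives 5 runs, or 6 with the last 10 libraries apart. Whether equal replicate numbers pair samples was checked by the correlation of deviations from group means. It was above 0.1 in every pair for the endogenous deletion clones with AID against CTCF-AID (0.3257 to 0.8967 in clone 1, 0.2232 to 0.6910 in clone 2) and in no other comparison with 3 or more pairs, and nothing in the labels says that numbers mark shared cultures. Peaks carry coordinates only. Motif sites come from a matrix rebuilt over 5 rounds, with a cutoff at the 95th percentile of windows 2 kb away from the peaks. Intervals between libraries cover sampling of these libraries and not PCR duplicates, since 5C reads carry no molecular identifiers.

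Alternatives were 50- and 200-kb windows, the median over pairs, observed over expected by distance, no scaling by other squares, 20-kb bins, raw counts, 200 rounds of an own correction, pairs measured in every library or with a mean of at least 1, symmetric matrices alone, a replicate block, a block by run, no filter, pseudocount 0.5 and each library left out. Added after seeing the data were raw counts of the first forward primers, members without a peak fragment, contacts within the windows over those across the bin, the geometric mean, and the last 10 libraries left out or as a block of their own.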

Additional observations from a re-analysis of the deposited data

Results flagged for a closer look

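With 100-kb windows, in 9 comparisons the change from full-length at boundary 1 was smaller than the change at another bin of the same libraries, by a permutation test of the within-library difference adjusted over 12 comparisons. In Del_1-265 the change at boundary 1 was below that at boundary 3 (−0.14, adjusted p = 0.00036), at boundary 5 (−0.19, adjusted p = 0.00024) and across the bin upstream (−0.083, adjusted p = 0.00392). Without dox it was below boundary 3 by −0.14 and boundary 5 by −0.18 (adjusted p = 0.02857 each) and below the bin upstream by −0.13 (adjusted p = 0.04444, permutation test). In Y226A-F228A it was below boundary 3 by −0.20 and boundary 5 by −0.18 (adjusted p = 0.02857 each) and below the bin upstream by −0.12 (adjusted p = 0.04444, permutation test). The 3 comparisons share their full-length libraries. The squares of boundary 1 and of the bin upstream also share most boundary 1 pairs. Differences from boundary 2 did not pass. In 16 sets of 4 to 10 libraries and squares checked for a library far from the others, 0 were found.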

How the results depend on the processing

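As reported, 1 line was called against full-length at boundary 1 and 1 across the bin upstream, 1 comparison between lines at each bin, and 9 of 12 differences between bins. No call of a bin and no direction changed with observed over expected, with pairs measured in every library or with pairs of a mean of at least 1. With pseudocount 0.5, member pairs called in Del_1-265 were 7 in place of 8. Where a setting below changed a value, the cause was not tested. Values are log2 differences, and "calls against full-length" counts lines.

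Without scaling by other squares, calls against full-length were 0 at boundary 1 and 0 upstream, calls between lines upstream were 4, Del_1-265 clone 1 at boundary 1 gave 0.10 without a call, and the endogenous 13-33 deletion turned to −0.0051 (untagged) and −0.068 (AID) at boundary 1 and −0.0043 (untagged) upstream. With the median over pairs, calls against full-length at boundary 1 were 2, differences between bins 2, Del_1-265 clone 2 was called at 0.19, and boundary 1 minus boundary 2 turned to 0.069 without dox and 0.074 in Y226A-F228A. With 20-kb bins, calls against full-length at boundary 1 were 0, Del_1-265 clone 1 gave 0.061 and Del_13-33 against Del_1-265 −0.026 without a call, and boundary 1 minus boundary 2 turned to −0.11 in Del_1-265. With raw counts, calls between lines at boundary 1 were 0, differences between bins 5, and Del_1-265 clone 1 (0.12) and Del_13-33 against Del_1-265 (−0.058) were not called. With an own correction these counts were 2 and 5. With raw counts of the first forward primers, calls against full-length were 7 at boundary 1 and 10 upstream, calls between lines at boundary 1 were 4, and auxin without dox (0.18), Del_1-265 clone 2 (0.14) and Y226A-F228A (0.23) were called, against a reference of 17 squares.

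With 50-kb windows, calls against full-length were 7 at boundary 1 and 8 upstream, differences between bins 1, auxin without dox (0.21), Del_1-265 clone 2 (0.20) and Y226A-F228A (0.33) were called, and the AID deletion upstream turned to 0.046. With 200-kb windows, calls against full-length at boundary 1 were 7, calls between lines 2, differences between bins 2, and the same lines were called at 0.19, 0.12 and 0.19. There the AID deletion turned to −0.013, boundary 1 minus boundary 3 to 0.055 in Del_1-265, 0.062 without dox and 0.0021 in Y226A-F228A, and boundary 1 minus boundary 2 to 0.019 without dox. With symmetric matrices alone, calls against full-length were 0 and 0, Del_1-265 clone 1 gave 0.14 without a call and the AID deletion upstream turned to 0.068. Without peak fragments, differences between bins were 2, the AID deletion turned to −0.013, and boundary 1 minus boundary 2 to 0.11 without dox and 0.032 in Y226A-F228A. For contacts within over across, calls against full-length were 0 and 0, Del_1-265 clone 1 gave 0.093 without a call, the deletions turned to −0.036 (untagged) and −0.12 (AID) at boundary 1 and −0.027 (untagged) upstream, and boundary 1 minus boundary 2 to 0.0053 without dox and 0.010 in Y226A-F228A. With the geometric mean, differences between bins were 1, and boundary 1 minus boundary 2 turned to 0.030 without dox and 0.080 in Y226A-F228A.

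With a replicate block, calls against full-length were 0 and 0, differences between bins 2, Del_1-265 clone 1 gave 0.17 without a call, and boundary 1 minus boundary 2 turned to 0.041 without dox. For the AID clones, where equal numbers went together, the blocked value changed no call. For the other lines the numbers were not shown to pair samples. With a block by run, differences between bins were 3, boundary 1 minus boundary 2 without dox turned to 0.052, and member pairs called were 2 without dox and 5 in Del_1-265. With the last 10 libraries as a block of their own, these were 3, 0.052, 2 and 5, calls against full-length were 0 and 0, Del_1-265 clone 1 gave 0.12 without a call, and CTCF-AID against full-length turned to 0.030 upstream. With those libraries left out, Del_1-265 clone 2 was called at 0.14 and boundary 1 minus boundary 2 without dox turned to 0.011. Member pairs called as reported were 1 without dox, 8 in Del_1-265 and 2 in Y226A-F228A, against 0, 3 and 1 in edgeR, 0 without dox and 5 in Y226A-F228A in DESeq2, and 4 in Del_1-265 with no filter.

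Of 1608 values with 1 library left out, 1525 kept their direction and call. Ranges were −0.057 to 0.0093 for the AID deletion upstream, −0.020 to 0.0048 for boundary 1 minus boundary 2 without dox, 0.12 to 0.15 for Del_1-265 clone 1 and 0.11 to 0.13 for clone 2 at boundary 1. The AID deletion upstream was positive without CTCF-AID replicate 1 (0.0093) or 2 (0.0035), and boundary 1 minus boundary 2 without dox was positive without its replicate 2 (0.0048) or full-length replicate 13 (0.0024). Counts ranged over 0 to 2 lines against full-length and 1 to 5 comparisons between lines at boundary 1 (5 without Del_1-265 clone 1 replicate 6, and 2 without full-length replicate 5 or the later of the libraries numbered replicate 3), and member pairs over 0 to 1 without dox, 3 (without full-length replicate 5) to 9 in Del_1-265 and 1 to 2 in Y226A-F228A. Lines with 2 libraries cannot pass after adjustment unless several reach the smallest p together.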
